A study of Mus musculus with 16 samples.

Results

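TRAV9N-4 and TRAV9D-4 are a pair of mouse T cell receptor (TCR) α chain V segments of the Vα3 (TRAV9) family, to which TRAV9N-3 also belongs. Their rearrangements were taken here as every CDR3 nucleotide sequence, in the 16 deposited TCRα libraries, whose first V hit was either segment. Counted within each library, 514 of 83992 CDR3 sequences met this rule, 433 under TRAV9N-4 and 81 under TRAV9D-4. They carried 21628 reads and held 498 different nucleotide and 450 different amino acid CDR3s. The members were chosen by the V call of their own reads, so their read shares in sorted cells and the residues the V segment encodes are given as a description. Of the 514, 270 with 19550 reads came from cells sorted with a Vα3.2 antibody and 244 with 2078 reads came from all CD8 cells.

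A TCR α chain is made in the thymus by joining a V to a J segment. The V segment encodes the CDR1 and CDR2 loops, which mostly face the MHC molecule, while the CDR3 loop is made at the junction, where bases are trimmed and added, and mostly faces the peptide. Rearrangement at the locus can be repeated, pairing V segments progressively farther upstream with J segments progressively farther downstream, until a receptor that passes positive selection is made. In C57BL/6 mice the V segment array contains large duplicated blocks, and the suffixes N and D mark the copies of one ancestral segment. Themis, a protein restricted to the T lineage, takes part in setting the signalling threshold of thymic selection.

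The study compared CD8 T cells of lymph nodes (LN) and CD8 single positive (SP) thymocytes from Themis-/- and Themis+/+ mice on a C57BL/6 background. All of the mice carried the Foxp3-GFP reporter allele, and none was given a treatment. From each genotype and tissue, TCR transcripts were amplified by 5' RACE from all TCRab+ CD8 cells and from Vα3.2+ TCRab+ CD8 cells, giving 8 groups of 2 libraries. The series describes the 2 libraries of a group as coming from individual mice, while the methods of the study mention pooled lymph nodes, so p-values measure the spread between these libraries only. The α chain tables hold no transcript of Themis, so the genotype labels could not be checked in them. The age of the mice is not given in the labels.

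The germline segments are shown first, because they show where these rearrangements differ from those of TRAV9N-3. In the GRCm38 assembly with the GENCODE M21 annotation, Trav9n-4 spans chr14:53294341-53295030 and Trav9d-4 spans chr14:52983201-52983860, both on the plus strand, each with a leader exon and a V exon. They stand at places 71 and 38 among 128 V genes of the locus, 859975 and 1171145 bases upstream of the first J gene. Trav9d-4 lacks 30 bases, or 10 codons, that Trav9n-4 holds at chr14:53294912-53294941 in its V exon, with 0 mismatches over the other 310 coding bases. TRAV9N-4 differs from TRAV9N-3, from TRAV9D-3 and from TRAV9-4 at 11 of 340 coding bases each. The 60 bases around the missing stretch, which is in capitals, and the 30 bases of the same place in Trav9d-4 are as follows.
Trav9n-4, chr14:53294897-53294956: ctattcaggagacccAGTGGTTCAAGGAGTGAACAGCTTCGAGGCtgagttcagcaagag
Trav9d-4, chr14:52983757-52983786: ctattcaggagaccctgagttcagcaagag

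In the 36 bases from the codon of the first conserved cysteine, capitals mark the codons of positions 28 and 29, in the CDR1 region.
Trav9n-4, chr14:53294814-53294849: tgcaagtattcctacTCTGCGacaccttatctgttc
Trav9d-4, chr14:52983674-52983709: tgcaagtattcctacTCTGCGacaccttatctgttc
Trav9n-3, chr14:53231886-53231921: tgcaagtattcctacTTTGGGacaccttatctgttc
Trav9d-3, chr14:52920896-52920931: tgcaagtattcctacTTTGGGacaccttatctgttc
Trav9-4, chr14:53676414-53676449: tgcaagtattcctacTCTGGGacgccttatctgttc

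TRAV9N-4 and TRAV9D-4 encode serine and alanine there, TRAV9N-3 and TRAV9D-3 encode phenylalanine and glycine, and TRAV9-4 encodes serine and glycine. The sort antibody was clone RR3-16, described as binding Vα3 chains whose CDR1 has phenylalanine at the place where the members encode serine. Whether it bound chains of the members was not measured here. The annotated germline V bases that enter the CDR3 are shown next, from the codon of the second conserved cysteine, with capitals at bases that differ from Trav9n-3.
Trav9n-4, chr14:53295018-53295030: tgtgctCtgagca
Trav9d-4, chr14:52983848-52983860: tgtgctCtgagca
Trav9n-3, chr14:53232090-53232102: tgtgctgtgagca
Trav9-4, chr14:53676618-53676630: tgtgctgtgagcG

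The single capital in Trav9n-4 and Trav9d-4 turns the CAVS opening of TRAV9N-3 into CALS, which sets the pair apart from TRAV9N-3 and TRAV9-4 in an untrimmed CDR3. The CDR3 alone does not identify the pair among all V segments. Of 498 member nucleotide CDR3s, 49 also stood under a V segment outside the pair. The last annotated germline base of Trav9n-4 and Trav9d-4, an a, is the first base of the codon at CDR3 position 5 when nothing is trimmed. TRAV9-4 has a g there. TRAV9D-3, which is not printed, has the same bases as TRAV9N-3, and these also end in an a. Among the 514 CDR3 sequences, 471 (91.6%) opened with CAL, 332 with CALS and 52 with CALR, and 0 with CAV. These openings follow from the V call and are a description of it.

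In the Vα3.2-sorted cells, TRAV9N-4 and TRAV9D-4 made up 9.39% and 11.7% of reads in the LN Themis+/+ libraries, replicate 1 and then replicate 2. They took 11.3% and 10.9% in LN Themis-/-, 10.6% and 16.2% in thymus Themis+/+, and 10.7% and 18.5% in thymus Themis-/-. The libraries lay close together apart from thymus, where the replicate 2 thymus library of each genotype was the highest. The group means were 10.5% ± 1.63, 11.1% ± 0.296, 13.4% ± 3.93 and 14.6% ± 5.51 in that order (SD, n = 2 each).

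The same rearrangements were rare in all CD8 cells. They took 0.477% and 0.0835% of reads in LN Themis+/+, 0.168% and 0.464% in LN Themis-/-, 0.264% and 0.141% in thymus Themis+/+, and 0.189% and 0.171% in thymus Themis-/-. The genotypes overlapped in LN, where the spread within a genotype was wide, and also in thymus, where both Themis-/- libraries sat between the Themis+/+ ones. Group means were 0.280% ± 0.278, 0.316% ± 0.209, 0.203% ± 0.0871 and 0.180% ± 0.0130 (SD, n = 2 each). The difference between sorted and all CD8 cells is a description with no test, because the sort selects on the V segment.

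**Figure D1:**
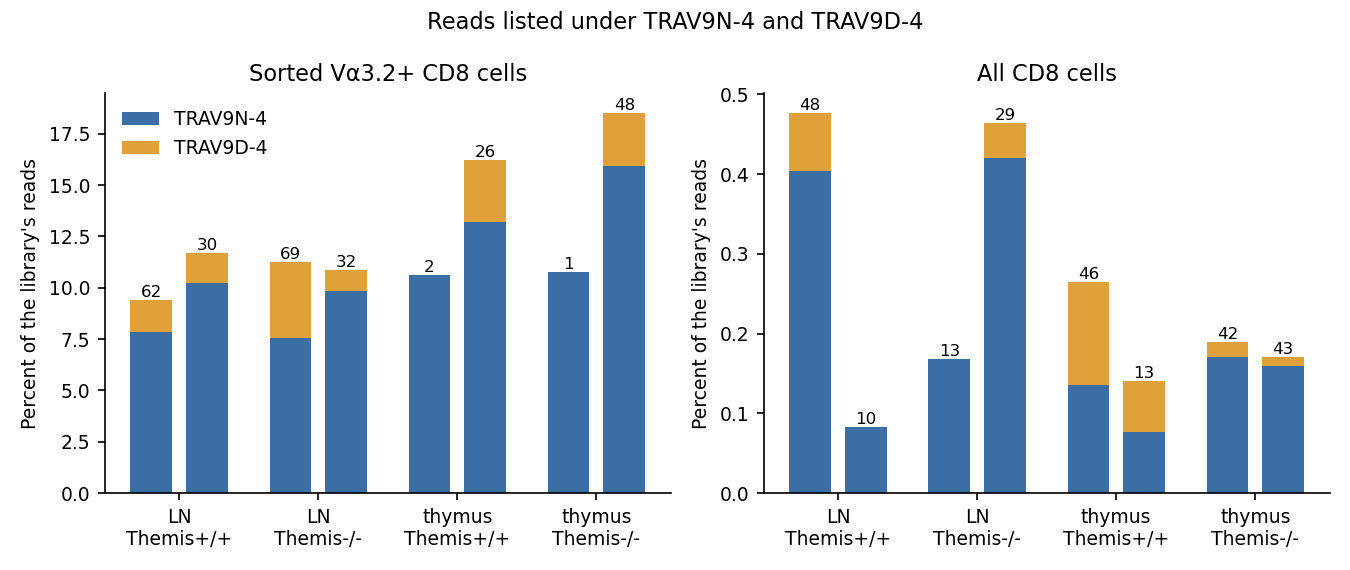
Percent of library reads under TRAV9N-4 (lower part of each bar) and TRAV9D-4 (upper part) in each library, with sorted and all CD8 cells on separate linear scales that start at 0, replicate 1 at the left and replicate 2 at the right of each group, and the number of CDR3 nucleotide sequences above each bar. Sorted libraries lie between 9.39% and 18.5% and libraries of all CD8 cells between 0.0835% and 0.477%.

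Library totals ran from 10338 to 25247 reads in the sorted and from 57455 to 146191 reads in the all CD8 libraries. The 95% Wilson interval around each share had a half-width of 0.371 to 0.597 percentage points in the sorted libraries and 0.0223 to 0.0469 points in all CD8 cells. These reads carry no molecular identifiers, so such intervals cover counting error only. In the sorted libraries 0.122% to 1.17% of reads lay outside the TRAV9 family, TRAV9N-3 and TRAV9D-3 took 41.2% to 89.3%, and TRAV9-4 took 0% to 38.7%. TRAV9-4 was at most 6.04% in the replicate 1 libraries and at least 19.9% in the replicate 2 libraries. The part of that split in the members' shares was not tested. In bulk RNA, fewer cells using a segment and less receptor RNA per cell cannot be told apart.

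Within the TRAV9 family, TRAV9N-4 and TRAV9D-4 held 9.41% to 18.6% of reads in the sorted and 3.54% to 19.8% in the all CD8 libraries. TRAV9D-4 alone held up to 32.9% of the members' reads in sorted cells, in LN Themis-/- replicate 1. It held, in all CD8 cells, 48.8% and 46.0% in thymus Themis+/+, against 10.1% and 7.07% in thymus Themis-/-. Both Themis+/+ thymus libraries were therefore above both Themis-/- ones, a pattern noticed after the values were seen, on 161, 64, 28 and 14 reads. In each Themis+/+ library a single CDR3 led, with 104 of the 161 and 63 of the 64 reads, and 8 of the 9 TRAV9D-4 sequences of these Themis+/+ libraries tied with TRAV9N-4. Fitted apart, TRAV9D-4 in thymus gave a log2 difference of Themis-/- over Themis+/+ of -2.51 (SE 1.68, adjusted p = 0.794, edgeR), which did not pass. TRAV9D-4 had no read in sorted thymus Themis+/+ replicate 1 or Themis-/- replicate 1, which allows shares of up to 0.0257% and 0.0290%. It had none either in all CD8 LN Themis+/+ replicate 2 or LN Themis-/- replicate 1, which allows up to 0.00522% and 0.00450%. These limits treat reads as separate draws, so they cover counting error of reads only and do not bound the share of cells. The calls are less certain in all CD8 cells, where 12 of 24 TRAV9D-4 sequences listed TRAV9N-4 with an equal best score, against 1 of 57 in sorted cells. Of the sequences tied in this way, 0 stood under TRAV9N-4. The first-hit rule thus counted every tie as TRAV9D-4, also in the shares and the fit above.

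The question whether loss of Themis changes use of these segments was asked with all V segments in one edgeR quasi-likelihood fit. In LN, all CD8 cells, the log2 difference of Themis-/- over Themis+/+ was 0.29 (SE 0.761, adjusted p = 0.874, edgeR), in a comparison where 3 of 113 segments (2.65%) passed an adjusted p of 0.05. In thymus it was -0.17 (SE 0.761, adjusted p = 0.997, edgeR), where 0 of 113 (0%) passed, 7 had an unadjusted p under 0.05 and DESeq2 called 0. Neither difference was larger than the spread between libraries. The difference between the LN and the thymus effect was 0.46 (SE 1.08, adjusted p = 0.924, edgeR). The LN value rests on single libraries, since leaving out one of the 4 gave between -0.57 and 2.04: -0.57 without Themis+/+ replicate 2 and -0.56 without Themis-/- replicate 2. The thymus value became 0.33 without Themis+/+ replicate 1 and 0.076 without Themis-/- replicate 2. For TRAV9N-3, which the paper names as Vα3.2, the same LN comparison gave a log2 difference of 2.04 (adjusted p = 0.0117, edgeR). For TRAV9D-3, grouped with TRAV9N-3 in other comparisons here, it was 1.41 (adjusted p = 0.0850, edgeR) and did not pass.

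Between tissues, the log2 difference of LN over thymus in all CD8 cells was 0.48 (SE 0.762, adjusted p = 0.968, edgeR) in Themis+/+ mice, where 0 of 113 segments (0%) passed, 0 had an unadjusted p under 0.05 and DESeq2 called 0. In Themis-/- mice it was 0.94 (SE 0.767, adjusted p = 0.564, edgeR), where 3 of 113 (2.65%) passed. Both values are higher in LN and neither passed. In Themis+/+ mice the value turned to -1.26 without LN replicate 1.

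In the sorted cells the Themis-/- over Themis+/+ difference was 0.07 in LN (SE 0.524, adjusted p = 0.899, edgeR) and 0.13 in thymus (SE 0.524, adjusted p = 0.964, edgeR). The LN over thymus difference was -0.35 in Themis+/+ mice (SE 0.524, adjusted p = 0.997, edgeR) and -0.40 in Themis-/- mice (SE 0.524, adjusted p = 0.967, edgeR). In each of these 4 comparisons 0 of 7 segments (0%) passed, 0 had an unadjusted p under 0.05 and DESeq2 called 0. The first value turned to -0.080 without LN Themis+/+ replicate 1, the second to -0.15 without thymus Themis+/+ replicate 1 and to -0.32 without thymus Themis-/- replicate 2, and the last to 0.042 without thymus Themis-/- replicate 2. With 2 libraries a group, an exact permutation test of a single share could not go below p = 0.33.

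In the sorted cells, the number of different CDR3s behind these shares varied far more than the shares did. The sorted LN libraries held 62 and 30 sequences in Themis+/+ and 69 and 32 in Themis-/-. The sorted thymus libraries held 2 and 26 in Themis+/+ and 1 and 48 in Themis-/-. The thymus replicate 1 libraries of both genotypes thus reached their 10.6% and 10.7% of reads with 2 and 1 sequences, and these libraries held only 84 and 86 CDR3 sequences in all. The counts in all CD8 cells were 48 and 10 in LN Themis+/+, 13 and 29 in LN Themis-/-, 46 and 13 in thymus Themis+/+, and 42 and 43 in thymus Themis-/-.

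In sorted cells the members were read more deeply per CDR3 than the other V segments of the same library. Median reads per CDR3 were 34 against 12 and 76 against 21 in LN Themis+/+, and 35 against 9 and 66 against 17 in LN Themis-/-. In thymus they were 621.5 against 85.5 and 90.5 against 30 in Themis+/+, and 1111 against 76 and 77 against 24 in Themis-/-. The members' median was higher in 8 of 8 sorted libraries, which is given as a description because the sort acts on the same reads. For all CD8 cells it lay between 3 and 8 reads against 4 to 6 for all other segments and was higher in 3 of 8 libraries.

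**Figure D2:**
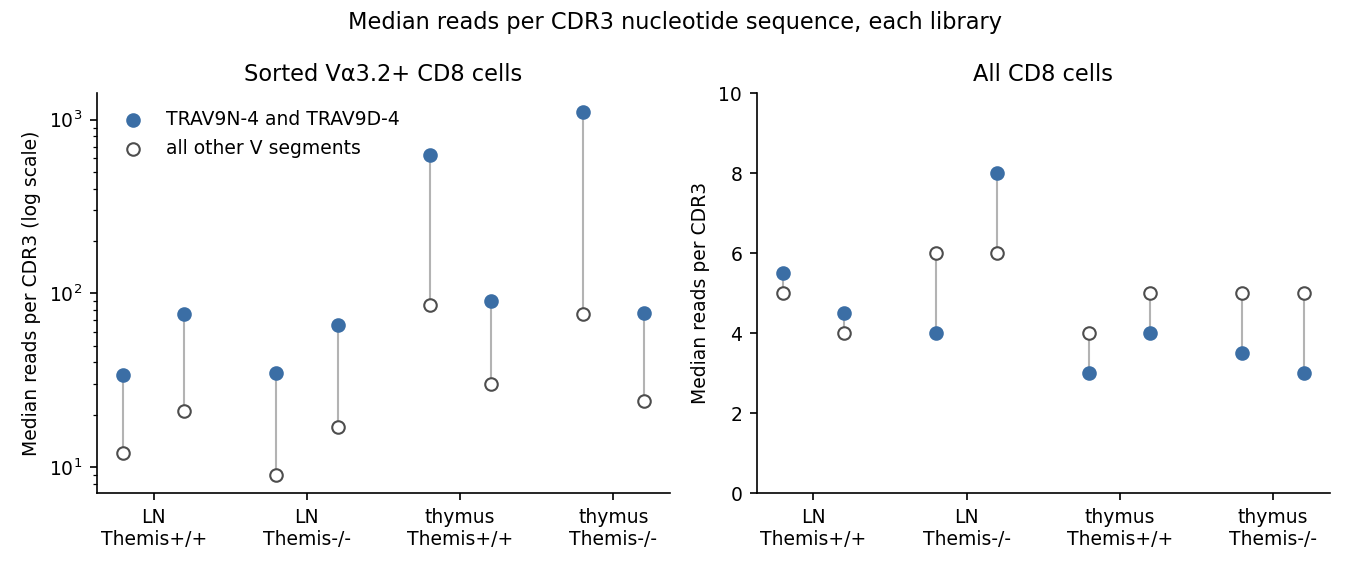
Median reads per CDR3 nucleotide sequence for TRAV9N-4 and TRAV9D-4 (filled points) and for all other V segments (open points) in each library, on a log axis for sorted cells and a linear axis for all CD8 cells. The filled point is above the open one in 8 of 8 sorted libraries and in 3 of 8 libraries of all CD8 cells.

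Sequences 1 base from a better read one, of the same length and J segment in the same library, can be PCR or sequencing errors or true clonotypes. They made up 25 of 270 member sequences in sorted cells (9.26%) against 31.0% of those under TRAV9N-3 and TRAV9D-3. They made up 89 of 244 (36.5%) in all CD8 cells against 48.1% for all other segments. Of those 89, 66 were 1 base from another member, and for 19 the best read neighbour belonged to no TRAV9 segment. For all other V segments in sorted cells the share was 29.6%. The J segment and CDR3 feature tests were repeated without such sequences, and calls that change are given with both values. V usage, median reads, methionine shares and shared CDR3s were not recomputed without them.

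The dominant CDR3s of the sorted thymus libraries are printed with the bases between the V and J alignments in capitals, because each is the most read member sequence of its library.
TRAJ22 join, thymus Themis-/- replicate 1: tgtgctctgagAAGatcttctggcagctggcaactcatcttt
TRAJ4 join, thymus Themis+/+ replicate 1: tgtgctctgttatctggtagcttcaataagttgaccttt
TRAJ7 join, thymus Themis+/+ replicate 2: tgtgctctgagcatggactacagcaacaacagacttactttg
TRAJ4 join, thymus Themis-/- replicate 2: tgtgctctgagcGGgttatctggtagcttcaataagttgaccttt

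The TRAJ22 join was the sole member sequence of its library, with 1111 reads. The TRAJ4 join of thymus Themis+/+ replicate 1 had 943 reads, 75.9% of the members' reads in its library, and its junction held no added base. The most read CDR3 was less dominant in the other sorted libraries. It had 313 reads (10.6%) in thymus Themis+/+ replicate 2 and 244 (5.74%) in thymus Themis-/- replicate 2, each as printed above. In LN, 3 libraries were led by a TRAJ16 join of 42 bases with 166 reads in Themis-/- replicate 2 (6.93%), a TRAJ16 join of 39 bases with 107 reads in Themis+/+ replicate 1 (4.79%) and a TRAJ15 join of 42 bases with 100 reads in Themis-/- replicate 1 (3.51%).

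The most read member CDR3 of each all CD8 library held 11.1% to 45.3% of the members' reads. In LN it was a TRAJ45 join (71 reads) and a TRAJ7 join (11 reads) in Themis+/+, and a TRAJ27 join (35 reads) and a TRAJ30 join (91 reads) in Themis-/-. In thymus it was a TRAJ17 join (104 reads) and a TRAJ31 join (63 reads) in Themis+/+, and a TRAJ12 join (56 reads) and a TRAJ24 join (22 reads) in Themis-/-. No library of all CD8 cells had the most read CDR3 of another as its own.

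Most of the members' CDR3s were found in a single library. The same count was not made for other V segments, so it is a description and not a trait of the members. Of 450 amino acid CDR3s, 422 were found in 1 library, 24 in 2, 3 in 3 and 1 in 5. The 4 found in more than 2 libraries, and the 1 of the 24 found in 2 libraries with the highest mean share of the members' reads, are shown as nucleotide sequences that encode them, with added bases in capitals, because they are where libraries meet.
TRAJ31, 39 bases, first form: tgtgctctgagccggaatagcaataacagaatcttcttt
TRAJ31, 39 bases, second form: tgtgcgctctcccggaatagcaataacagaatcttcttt
TRAJ31, 36 bases: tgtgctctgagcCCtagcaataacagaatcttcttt
TRAJ4, 45 bases: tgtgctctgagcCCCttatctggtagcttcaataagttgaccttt
TRAJ4, 39 bases, in LN Themis+/+ replicate 1: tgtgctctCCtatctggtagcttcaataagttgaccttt
TRAJ4, 39 bases, in LN Themis+/+ replicate 2: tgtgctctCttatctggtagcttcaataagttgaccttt
TRAJ7, 42 bases: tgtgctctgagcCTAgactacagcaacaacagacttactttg

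The amino acid CDR3 of the 39-base TRAJ31 joins stood in 5 libraries with 469 reads, made by these 2 nucleotide forms. The first form, with no added base in the alignments, was in both sorted LN Themis+/+ libraries (49 and 102 reads), in sorted thymus Themis-/- replicate 2 (168 reads) and in all CD8 LN Themis+/+ replicate 1 (2 reads). The second form was in sorted LN Themis-/- replicate 2 alone (148 reads). It was thus in both genotypes and both tissues of the sorted cells. The CDR3s of the 39-base TRAJ4, the 45-base TRAJ4 and the 36-base TRAJ31 joins stood in 3 libraries each, with 1012, 276 and 359 reads. The first of these was made by a different nucleotide sequence in each of its 3 libraries, all sorted Themis+/+, of which the thymus form is the 943-read join printed above. The CDR3 of the TRAJ7 join stood in 2 libraries of all CD8 cells with 86 reads, and 5 of its 6 nucleotide sequences were in LN Themis-/- replicate 2.

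In sorted cells 10 amino acid CDR3s were in both genotypes, 9.01% of the 111 in Themis+/+ and 6.99% of the 143 in Themis-/-. Of all CD8 cells, 3 were in both, 2.78% of 108 and 2.73% of 110. LN and thymus shared 7 in sorted cells (of 175 and 76) and 2 in all CD8 cells (of 82 and 135). Sorted and all CD8 libraries shared 9, which is 3.69% of 244 and 4.19% of 215. These overlaps were not counted for other V segments and are given as a description. Of 498 member nucleotide CDR3s, 49 (9.84%) also stood under a V segment other than the pair, 41 of them under TRAV12, and 0 under another TRAV9 segment. For TRAV9N-3 and TRAV9D-3 that share was 4.19%.

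J segments were compared over distinct CDR3 nucleotide sequences, within each library. In the sorted cells the members were set against TRAV9N-3 and TRAV9D-3, and 2 of 31 J segments tested (6.45%) passed an adjusted p of 0.05, both higher in the members. With reads in place of sequences 15 passed and with DESeq2 1, each of them lower in the members. TRAJ31 was used by 9 of 62 and 9 of 30 member sequences in LN Themis+/+ (14.5% and 30%), 4 of 69 and 4 of 32 in LN Themis-/- (5.80% and 12.5%), 3 of 26 in thymus Themis+/+ replicate 2 (11.5%) and 7 of 48 in thymus Themis-/- replicate 2 (14.6%). It was used by none of the 2 and 1 member sequences of the thymus replicate 1 libraries. In TRAV9N-3 and TRAV9D-3 it took 0.865% to 5.26%, so the members were above it in 6 of 8 libraries, the 6 with more than 2 member sequences. Pooled, TRAJ31 was in 36 of 270 member sequences (13.3%) against 3.36%, with a log2 difference of 2.12 (SE 0.360, adjusted p = 4.65e-07, edgeR).

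The call for TRAJ31 was lost when reads took the place of distinct sequences (1.18, adjusted p = 0.617, edgeR) and with DESeq2 (1.46, adjusted p = 0.0636). It held without each library in turn, with log2 differences from 1.83 to 2.45. TRAJ4 was in 29 of 270 member sequences (10.7%) against 3.99%, with a log2 difference of 1.37 (SE 0.374, adjusted p = 0.00472, edgeR). It took 14.5% and 10% in LN Themis+/+, 14.5% and 6.25% in LN Themis-/-, 1 of 2 sequences and 0% in thymus Themis+/+, and 0% and 8.33% in thymus Themis-/-. This call was lost with reads (0.95, adjusted p = 0.659, edgeR), with DESeq2 (0.75, adjusted p = 0.349), without near-identical sequences (1.12, adjusted p = 0.0690, edgeR), without LN Themis+/+ replicate 1 (1.25, adjusted p = 0.0905, edgeR) and without LN Themis-/- replicate 1 (1.21, adjusted p = 0.145, edgeR).

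In all CD8 cells the 5 J segments most used by the members were TRAJ21 (8.51% ± 6.38), TRAJ31 (7.46% ± 6.21), TRAJ27 (7.21% ± 13.1), TRAJ9 (7.09% ± 6.90) and TRAJ7 (6.35% ± 7.97), as means over libraries (SD, n = 8). Among all other V segments these J segments took 4.36%, 5.02%, 2.44%, 2.83% and 2.66%. TRAJ27 rests on 5 of 13 sequences (38.5%) in LN Themis-/- replicate 1 and was at 0% to 7.69% in the other libraries. Pooled over libraries, TRAJ12 and TRAJ13 (16 of 244 each) and TRAJ30 (15) stood above TRAJ9 (14), TRAJ7 (13) and TRAJ27 (11). The SDs of the members are about as large as the means, with 10 to 48 member sequences a library. TRAJ21 ran from 0 of 48 in LN Themis+/+ replicate 1 to 8 of 43 (18.6%) in thymus Themis-/- replicate 2. Against all other V segments, 0 of 43 J segments (0%) passed in edgeR, with 10 at an unadjusted p under 0.05 and the lowest adjusted p at 0.0795. DESeq2 called 13, each lower in the members, and TMM scaling or reads in place of sequences called 22 and 23, also each lower. The 2 J segments called in sorted cells did not pass here, against this other comparison set. Pooled, TRAJ31 was at 6.56% against 5.14% (log2 difference 0.37, SE 0.513, adjusted p = 0.783, edgeR). TRAJ4 was in 4 of 244 member sequences (1.64%) against 1.73% (log2 difference -0.12, SE 0.886, adjusted p = 0.938, edgeR).

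**Figure D3:**
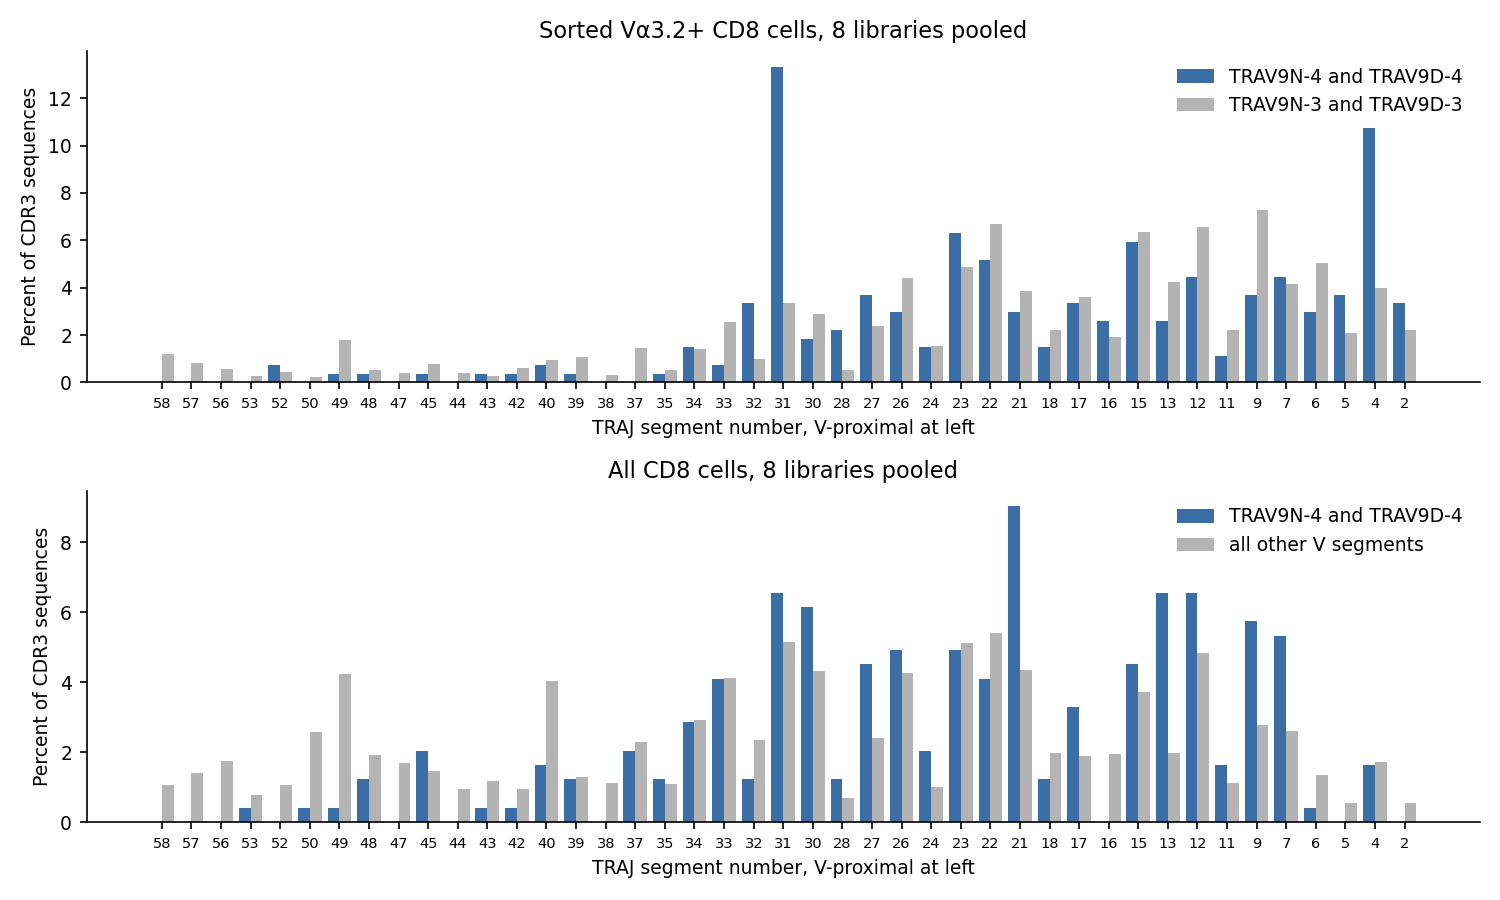
Percent of distinct CDR3 sequences using each TRAJ segment, pooled over libraries and ordered by TRAJ number, for TRAV9N-4 and TRAV9D-4 against TRAV9N-3 and TRAV9D-3 in sorted cells and against all other V segments in all CD8 cells. In sorted cells TRAJ31 (13.3% against 3.36%) and TRAJ4 (10.7% against 3.99%) stand out, and in all CD8 cells the members are low at the high TRAJ numbers.

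TRAJ numbers fall with distance from the V segments, so that a low number marks a J segment far downstream. The members' mean TRAJ number in all CD8 cells was lower than that of all other V segments in 8 of 8 libraries, with a difference of -6.33 ± 4.21 (SD, n = 8 libraries; exact sign-flip p = 0.00781, adjusted p = 0.0109 over 7 features). Means ran from 15.3 to 28.1 in the members and from 25.7 to 33.3 in the other segments. Of 98 V segments present in all 8 libraries, 54.1% stood wholly on one side in this measure, and the members ranked 81 of 100 from the highest. Among CDR3s of 14 residues only, the difference was -5.57 and did not pass (adjusted p = 0.0820, exact test). J segments numbered 38 and above, a limit chosen after the values were seen, took 20 of 244 member sequences (8.20%) against 27.5% in all other segments. In sorted cells they took 10 of 270 (3.70%) against 10.6% under TRAV9N-3 and TRAV9D-3, where the mean TRAJ number differed by -2.07 ± 5.34 (exact p = 0.406, adjusted p = 0.474).

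CDR3 composition was compared by 7 features of each library's mean over distinct sequences. Length is in bp, hydropathy is the mean Kyte-Doolittle value per residue (higher is more hydrophobic), and net charge counts lysine and arginine as positive and aspartate and glutamate as negative. Against all other V segments in all CD8 cells, 6 of the 7 features (85.7%) passed an adjusted p of 0.05. Among them were both measures of position 5, whose codon opens with the last annotated germline V base when untrimmed. Hydropathy and net charge take in that position too, so these features are not independent of it. The count of 6 therefore includes residues that the V call can set, and is given as a description. With 8 paired libraries the smallest exact two-sided p is 0.00781, and many V segments differ from the rest in this way, so the share of segments wholly on one side is given with each feature.

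Isoleucine, leucine or methionine stood at CDR3 position 5 in 42.7% ± 14.4 of member sequences against 8.09% ± 0.691 of the others in all CD8 cells (SD, n = 8; higher in 8 of 8; 35.7% of segments one-sided). The lowest member library, LN Themis+/+ replicate 1 at 22.9%, was above the highest value of the other segments, 8.88%. Aspartate or glutamate stood there in 3.21% ± 4.38 against 28.2% ± 1.04 (lower in 8 of 8; 81.6% one-sided). Among 100 V segments the members ranked 2 from the highest for the first measure and 96 for the second. The a that ends the annotated germline V sequence opens the codon of position 5 when untrimmed, so methionine and isoleucine can be reached from it. Aspartate and glutamate, whose codons open with g, need that base trimmed, as does leucine, whose codons open with c or t. How much of either measure comes from this base, or from V bases past the annotated end, was not tested. Both are given as a description.

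Methionine alone was at position 5 in 69 of 244 member sequences of all CD8 cells (28.3%), the second highest of 100 segments after TRAV9N-3 (41.7%). TRAV9D-3, with the same annotated germline CDR3 bases as TRAV9N-3, had it in 6.99% and ranked 16. In sorted cells methionine was in 51 of 270 member sequences (18.9%) against 22.1% under TRAV9N-3 and TRAV9D-3. Each of these 120 methionine codons was ATG, the only codon for methionine. The last 2 bases of any codon at position 5 lie past the annotated germline V end. The deposited V alignment reached further, through the ATG, in the TRAJ24 join that led thymus Themis-/- replicate 2 of all CD8 cells. How many of these ATG codons lie within the V segment was not tested. By group, pooled over both libraries, methionine was there in 12 of 92 sequences of sorted LN Themis+/+, 15 of 101 of LN Themis-/-, 11 of 28 of thymus Themis+/+ (39.3%) and 13 of 49 of thymus Themis-/- (26.5%). The corresponding shares in all CD8 cells were 17.2%, 33.3%, 25.4% and 35.3% in the same order, so thymus was above LN in both genotypes of each sort, and the 2 sorts differed in the order of the genotypes in thymus. The single libraries overlapped between tissues in all CD8 cells, at 10% to 38.5% in LN and 23.9% to 44.2% in thymus. In sorted cells LN ran from 10% to 18.8%, while thymus had 0% in both replicate 1 libraries, of 2 and 1 sequences, and 42.3% and 27.1% in replicate 2, on which the pooled thymus shares rest. These shares of methionine were not tested.

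Member CDR3s of all CD8 cells were more hydrophobic, by 0.307 ± 0.151 per residue (0.484 ± 0.160 against 0.177 ± 0.0238; SD, n = 8; exact p = 0.00781, adjusted p = 0.0109; 8 of 8; 39.8% one-sided). They were more positively charged, by 0.291 ± 0.164 (0.714 ± 0.150 against 0.423 ± 0.0597; exact p = 0.00781, adjusted p = 0.0109; 8 of 8; 57.1% one-sided). Counted from position 5 on, without the 4 residues before it, the differences were 0.246 and 0.290, with the same exact p of 0.00781. These counts still include position 5, where aspartate and glutamate were rarer in the members. The part of position 5 in the hydropathy and charge differences was not separated from the rest. Among CDR3s of 14 residues only, the charge difference was 0.187 and did not pass (adjusted p = 0.372, exact test), while hydropathy differed by 0.302 (adjusted p = 0.0182, exact test). The members ranked 5 of 100 segments in hydropathy and 16 in charge.

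Member CDR3s of all CD8 cells were shorter, with a difference of -0.566 ± 0.663 bp (39.99 ± 0.678 against 40.6 ± 0.152; exact p = 0.0391, adjusted p = 0.0456; lower in 7 of 8; 39.8% one-sided). This call was lost without sequences of 1 read (adjusted p = 0.128, exact test), without near-identical sequences (adjusted p = 0.0729, exact test), with each CDR3 weighted by reads (adjusted p = 0.586, exact test) and in 7 of the 8 fits that left out a library, of which the exception left out thymus Themis+/+ replicate 1. Over both sorts, lengths ran from 27 to 51 bp, with 141 sequences at 39 bp and 140 at 42 bp. Bases added between V and J differed by 0.326 ± 0.631 (exact p = 0.219, adjusted p = 0.219; 11.2% one-sided).

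**Figure D4:**
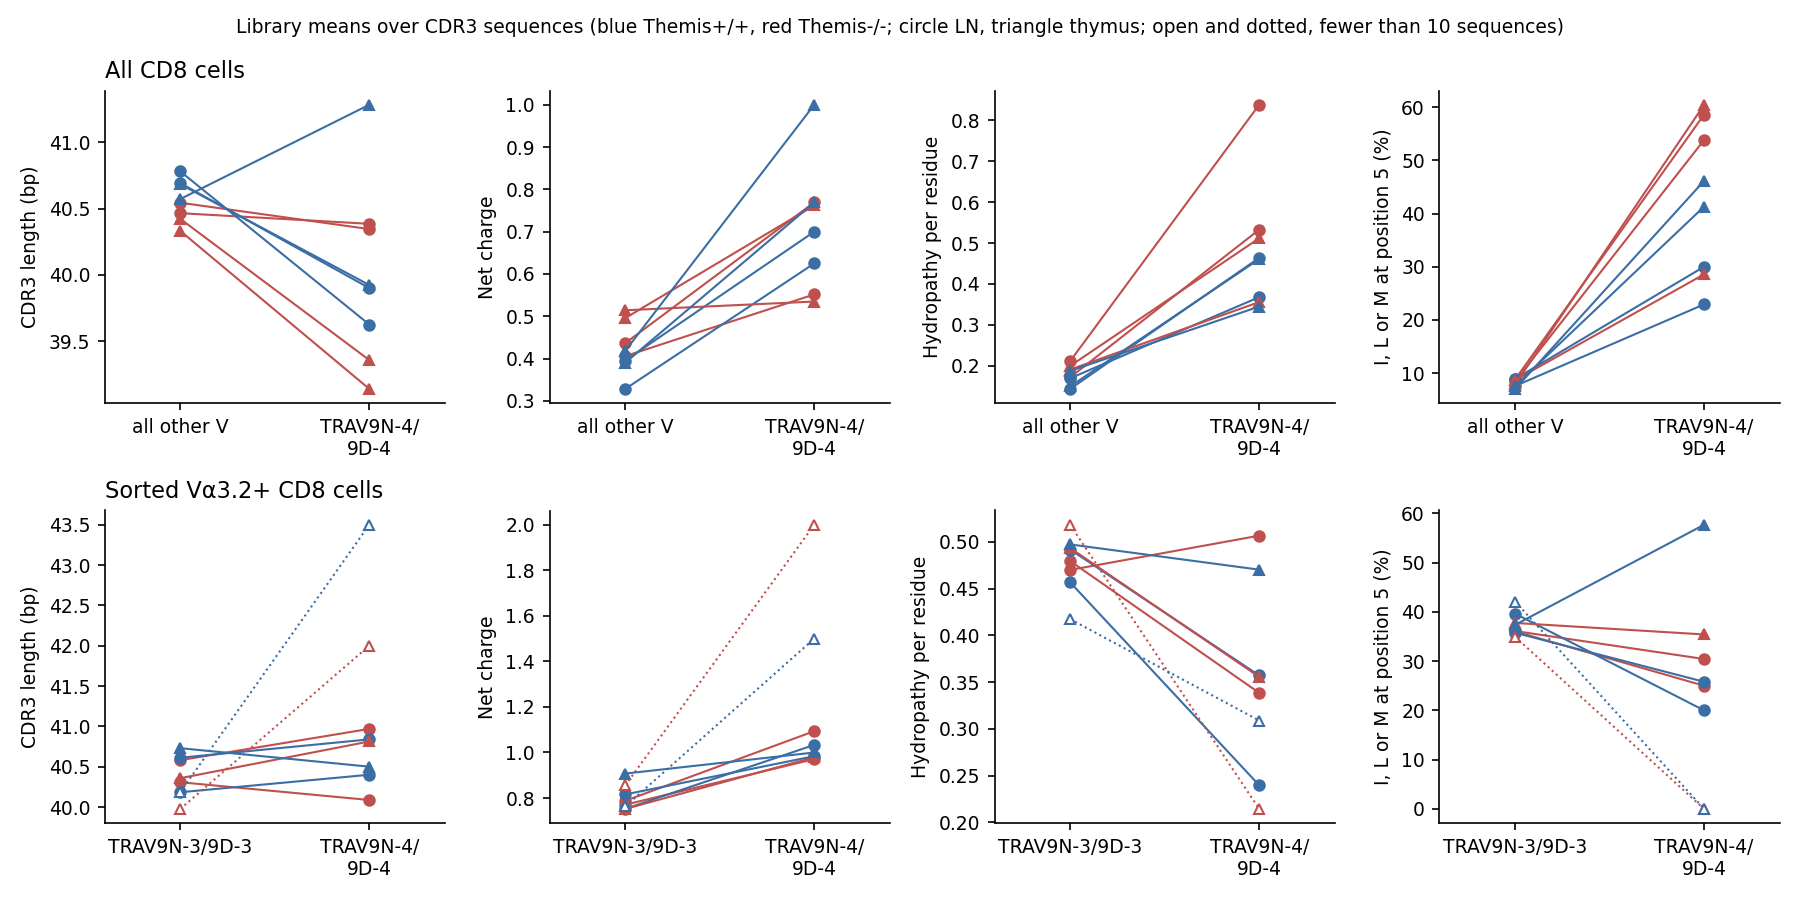
Library means of CDR3 length, net charge, hydropathy and percent with isoleucine, leucine or methionine at position 5, with a line joining the comparison segments to TRAV9N-4 and TRAV9D-4 within each library (blue Themis+/+, red Themis-/-, circles LN, triangles thymus, open symbols and dotted lines for libraries of under 10 member sequences). In all CD8 cells the lines for charge, hydropathy and position 5 rise in 8 of 8 libraries, and in sorted cells charge rises in 8 of 8 while hydropathy falls in 7 of 8.

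Against TRAV9N-3 and TRAV9D-3 in the sorted cells, the comparison of close relatives, 0 of the 7 features (0%) passed an adjusted p of 0.05 in the exact test, with 3 at an unadjusted p under 0.05. Net charge was 1.20 ± 0.370 against 0.801 ± 0.0558, a difference of 0.394 ± 0.360 (SD, n = 8; exact p = 0.00781, adjusted p = 0.0547; higher in 8 of 8). Hydropathy differed by -0.129 ± 0.105 (exact p = 0.0234, adjusted p = 0.0547; lower in 7 of 8) and added bases by 0.582 ± 0.444 (exact p = 0.0156, adjusted p = 0.0547; higher in 7 of 8). The charge of 2 and 1.5 in the thymus replicate 1 libraries is that of their 1 and 2 sequences. Without those libraries the charge difference was 0.212 ± 0.0776 (n = 6; exact p = 0.0312, adjusted p = 0.219), 0 features passed and 1 had an unadjusted p under 0.05, while without LN Themis-/- replicate 1 these 3 features passed at an adjusted p of 0.0365 in the exact test.

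None of the other features of the sorted cells had an unadjusted p under 0.05 in the exact test. Length was 41.1 ± 1.11 against 40.4 ± 0.256 bp (exact p = 0.0859, adjusted p = 0.150). Isoleucine, leucine or methionine at position 5 was in 24.3% ± 18.8 against 37.5% ± 2.38 (exact p = 0.109, adjusted p = 0.153), and in 32.4% ± 13.5 against 37.1% ± 1.47 without the thymus replicate 1 libraries. Aspartate or glutamate there was in 4.17% ± 3.33 against 3.79% ± 1.17 (exact p = 0.688, adjusted p = 0.688).

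Between genotypes, within tissue and sort, 0 of 7 member features (0%) passed in the exact permutation test, and 0 had an unadjusted p under 0.05. The lowest p was for hydropathy, 0.457 ± 0.189 in Themis-/- against 0.377 ± 0.0831 in Themis+/+ libraries, a difference of 0.0802 (SD, n = 8 each; exact permutation p = 0.253, adjusted p = 0.719). Net charge differed by 0.00628 (exact permutation p = 0.961, adjusted p = 0.961). Between tissues 0 of 7 (0%) passed and 0 had an unadjusted p under 0.05. The lowest p was for net charge, 0.841 ± 0.205 in LN against 1.07 ± 0.469 in thymus, a difference of -0.227 (exact permutation p = 0.116, adjusted p = 0.803). It ran from -0.355 to -0.0996 when 1 library was left out, and was -0.0371 without the sorted thymus replicate 1 libraries of 2 and 1 sequences. Length, TRAJ number and the residues at position 5 also did not pass in either comparison.

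In sorted cells, where the calls of the pair are distinct, the 57 TRAV9D-4 sequences opened with CALS in 45.6% and the 213 TRAV9N-4 sequences in 64.3%. Methionine at position 5 was in 12.3% and 20.7%, and junctions with no added base were 38.6% and 26.8%. Mean length was 40.6 bp in both. These values are pooled over libraries and were not tested.

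Over the 8 libraries of all CD8 cells, the V segments whose log2 share of reads followed that of the members most closely, among 112, were TRAV18 (Pearson r = 0.685), TRAV9N-2 (r = 0.650) and TRAV16N (r = 0.581). TRAV9-4 had r = 0.468 and ranked 10. TRAV18 and TRAV9N-2 were listed at 0% in some libraries and at most at 0.115% and 0.0198%, while TRAV16N took 2.39% to 4.01%. All of these shares come from the same 8 libraries and have library totals in common.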

How the data were processed

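Per the labels, total RNA of sorted cells was amplified by 5' RACE and sequenced, and TCR sequences were extracted by the authors with MiXCR with no version named in the sources read. The submitters' processing notes name CASAVA 1.4 and mm9. The deposited tables list, per library, each CDR3 nucleotide sequence with its read count and the fraction of library reads (equal to count over total in every library). Only α chain tables were used here. The first V hit, before the asterisk, set the segment. Germline sequence and coordinates came from GRCm38.

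V usage was tested with edgeR 4.0.16 (R 4.3.3; at least 10 reads in 2 libraries), with TMM for all CD8 cells and library totals for sorted cells. J use was fitted on distinct sequences (at least 10), with the library as a block. TMM had been planned for J, but on simulated data of all CD8 cells it called 5 of 43 unchanged J segments, against 0 with column totals. In the simulation of sorted cells each called 0 of 31. Column totals were used for both. With TMM the sorted comparison called 3 J segments, each higher in the members. CDR3 features were tested by exact sign flips over libraries, or exact permutation within tissue and sort (1296 arrangements). Adjustment was Benjamini-Hochberg. DESeq2 1.42.0 was an alternative. In the simulation of LN V usage (113 segments), 4 of 10 segments changed by log2 2 and 8 of 10 changed by log2 3 were called, with 0 of 93 unchanged.

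Named J segments were the 5 most used in all CD8 cells and up to 3 with the smallest adjusted p each way. Named CDR3s were the 5 in the most libraries and the most read of each library, of which 1 is not reported here. Named V segments were the 3 most like the members in share. The segments, lists and tests were chosen with earlier results of these data known. Sequences of 7 TRDJ joins were left out of mean TRAJ numbers.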

Additional observations from a re-analysis of the deposited data

How the results depend on the processing

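Under 98 alternative settings of the 8 V usage comparisons the lowest adjusted p was 0.361 (edgeR) and 0 passed, while 12 gave another sign. With distinct sequences in place of reads the log2 difference was 0.63 for all CD8 thymus Themis-/- over Themis+/+, -0.18 for sorted LN Themis-/- over Themis+/+ and 0.012 for sorted Themis+/+ LN over thymus, and the cause was not tested. Leaving out 1 library gave -0.57 to 2.04 (LN genotype), -0.45 to 0.33 (thymus genotype), -1.26 to 1.30 (Themis+/+ tissue) and 0.09 to 1.35 (Themis-/- tissue) in all CD8 cells. In sorted cells it gave -0.080 to 0.24, -0.32 to 0.47, -0.62 to -0.01 and -0.74 to 0.042 in the same order. The J segments called numbered 0 to 0 in all CD8 and 1 to 3 in sorted cells without each library, and the features called numbered 5 to 6 and 0 to 3. For aspartate or glutamate at position 5 in sorted cells, the difference ran from -0.42 points without LN Themis+/+ replicate 2 to 1.13 points.

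For J segments, reads in place of sequences called 23 in all CD8 and 15 in sorted cells, DESeq2 13 and 1, and TMM 22 in all CD8 cells, each of these lower in the members. Leaving out near-identical sequences, an alternative chosen after seeing the data, called 1 in sorted cells, higher in the members. With CDR3s of 14 residues only, which cannot differ in length, 3 features were called in all CD8 cells, the genotype difference in hydropathy was -0.0255 and the tissue difference in net charge was 0.00494.

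The labels number the libraries 1 and 2 in each group without saying that a number marks a shared animal or batch. With the replicate number as a block the V usage differences in the order above were 0.59, -0.11, 0.37 and 1.07 in all CD8 cells and 0.10, 0.11, -0.33 and -0.34 in sorted cells, and no call for the members changed. Over all segments of all CD8 cells the block called 3, 0, 0 and 2 of 113 against 3, 0, 0 and 3 without it. Deviations of same-numbered libraries correlated at -0.116, -0.107, -0.0238 and -0.0218 over 113 segments in all CD8 cells and at 0.841, 0.483, 0.825 and 0.969 over 7 segments in sorted cells. In fits of the 4 libraries compared, the genotype comparisons of all CD8 cells called 1 segment in LN and 1 in thymus with the numbers as labelled, and 1 and 3 with the numbers crossed, a pairing chosen after seeing the data.

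Member reads ran from 48 to 599 a library in all CD8 cells, and a pair of sorted thymus libraries held 1 or 2 member sequences. In the simulation of LN V usage in all CD8 cells, 4 of 10 segments changed by log2 2 were called. Of those changed by log2 3, 8 of 10 were called. The members' LN genotype difference ran from -0.57 to 2.04 when 1 library was left out. A V usage difference that did not pass is therefore not shown to be absent or small.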
